A study of Mus musculus with 56 samples.

Results

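RNA left unbound after a ribosome pulldown was compared between barrel cortex of mice with both copies of Cx3cr1 disrupted (knockout) and mice with 1 copy disrupted (heterozygous). The comparison used every unbound library of these 2 lines, 10 knockout and 8 heterozygous, which is 18 of the 56 libraries of the series. The same 18 tissue pieces also gave bound libraries. Each mouse gave a left and a right piece, and the counts of its 2 unbound libraries were summed, so the tested samples were 5 knockout and 4 heterozygous mice. In this way the control and the deprived state of the whiskers were averaged.

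Knockout mice carried the genotype Cx3cr1CreErt2/CreErt2(Litt) Eef1a1LSL.eGFPL10a/+ and were 3 females (mice 7, 18 and 19) and 2 males (mice 12 and 22). Heterozygous mice carried Cx3cr1CreErt2/+(Litt) Eef1a1LSL.eGFPL10a/+ and were 3 females (mice 14, 17 and 21) and 1 male (mouse 15). All 9 mice thus had an inducible Cre recombinase in Cx3cr1 and an EGFP-tagged ribosomal protein L10a that Cre switches on. All received 50 µg tamoxifen at postnatal days 1 to 3, all had the whiskers of the right side cauterised at day 4, and tissue was taken 24 h later, at day 5. Left pieces were labelled deprived and right pieces control in every knockout mouse and in heterozygous mice 14 and 15. Both pieces of heterozygous mouse 17 were labelled deprived and both of mouse 21 control. The right piece of mouse 17 and the left piece of mouse 21 thus carry a state that goes against the side of the lesion, as the other mice have it. Values given below for control or deprived libraries alone follow the labels and rest on these doubtful pieces too. The labels give no litter or day of preparation. The 2 genotypes stand in separate deposited tables, and the labels call the molecule polyA RNA for the knockout libraries and total RNA for the heterozygous ones. Genotype, table and labelled RNA type therefore cannot be told apart, and no mouse in the comparison has 2 intact copies of Cx3cr1.

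Cx3cr1 encodes the fractalkine receptor, a G protein-coupled receptor that in the brain is made almost entirely by microglia. Its ligand, fractalkine (Cx3cl1), is a membrane-bound chemokine made mainly by neurons and released by the proteases Adam10 and Adam17. The unbound fraction is what the antibody to the tag leaves behind, so it holds RNA of all cells of the piece, mostly neurons and glia other than microglia. In such bulk RNA, fewer cells of a type and less RNA per cell cannot be told apart.

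The unbound libraries held 34.6 to 56.7 M counts in knockout and 32.8 to 50.7 M in heterozygous cortex. Mitochondrial ribosomal RNA took 26.8 ± 2.06% of the counts of knockout mice (SD, n = 5) and 24.3 ± 1.34% of those of heterozygous mice (SD, n = 4; two-sided exact permutation test over mice, p = 0.0317, and 0.111 after Benjamini-Hochberg adjustment over 7 measures of composition; the smallest p the design allows is 0.0159). Protein-coding genes took 71.4 ± 1.96% and 73.8 ± 1.35% (exact permutation p = 0.0317, adjusted 0.111). The shares of long noncoding RNA, pseudogenes, small noncoding RNA, histone genes and mitochondrially encoded protein genes had adjusted p-values of 0.222 to 0.667. Small noncoding RNAs were 0.00539 ± 0.000318% of knockout and 0.00521 ± 0.0000857% of heterozygous counts, and replication-dependent histone genes 0.0127 ± 0.00125% and 0.0124 ± 0.000546%. The libraries held the markers of cortex: neuron markers summed to 7786 to 8454 CPM (counts scaled to the size of the library) in knockout and 7863 to 8407 CPM in heterozygous mice, and the layer 4 gene Rorb averaged 436 ± 45.1 and 464 ± 51.1 CPM. The nearest library by overall expression was the other piece of the same mouse for 6 of the 18 libraries and one of the same genotype for 9.

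Few genes passed the test in unbound cortex. Of 20950 genes tested, 3 had an adjusted p under 0.05 (0.0143%), 2 higher (0.00955%) and 1 lower (0.00477%) in knockout mice (edgeR quasi-likelihood test on mouse sums, Benjamini-Hochberg adjustment over all genes tested). Unadjusted p-values under 0.05 were given to 969 genes (4.63%), of which 449 (2.14%) were higher and 520 (2.48%) lower. With each library as a replicate, which counts the 2 pieces of a mouse as separate samples, 13 of 19278 genes were called (0.0674%), among them all 3 and also Samd9l, Tcf7l2, Srd5a1, Zfp874a and Zfp458, which are described further on. The median log2 difference over all genes, knockout minus heterozygous here and throughout, was near 0, with 50.6% of genes below 0.

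Cx3cr1 fell in knockout cortex, and no mouse went against its genotype label. Its level was 0.0511, 0.0588, 0.0930, 0.154 and 0.0529 CPM in knockout mice 7, 12, 18, 19 and 22, against 1.76, 1.15, 1.29 and 1.33 CPM in heterozygous mice 14, 15, 17 and 21. These values rest on 4 to 14 counts per knockout mouse and 98 to 156 per heterozygous mouse, and the genotypes did not overlap in any library. The knockout mean was 5.92% of the heterozygous mean, and the log2 difference was -4.06 ± 0.27 (SE; edgeR, adjusted p = 2.7e-05). The annotated gene lies on the minus strand of chromosome 9, from 119901616 to 120069879 in GRCm38, and its span overlaps other genes, among them Wdr48 and Csrnp1. In the bound fraction of the same pieces, Cx3cr1 averaged 0.838 CPM in knockout and 10.2 CPM in heterozygous mice, a log2 difference of -3.59 ± 0.18 (edgeR, adjusted p = 8.6e-07). It was the 1 gene called of 20630 tested in bound RNA (0.00485%).

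The other genes of the fractalkine pathway did not pass. Cx3cl1 averaged 17.7 ± 2.41 CPM in knockout and 16.3 ± 0.697 CPM in heterozygous mice (log2 difference 0.12 ± 0.09). Adam10 averaged 36.4 ± 2.83 and 37.3 ± 2.95 CPM (-0.04 ± 0.07). Adam17 averaged 8.88 ± 0.849 and 8.50 ± 0.487 CPM (0.06 ± 0.08). Each had an adjusted p of 0.999 in the edgeR test, and the mice of the 2 genotypes overlapped in all 3 genes.

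Around Cx3cr1 on chromosome 9, no neighbour within 10 Mb passed the test. Of 174 other genes tested in that window, 8 had an unadjusted p under 0.05 (4.60%), 4 higher and 4 lower, against 4.63% of all genes. The mice of the 2 genotypes did not overlap for 1.15% of the window's genes and for 1.54% of all genes.

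Zfp457, a KRAB zinc finger gene on chromosome 13, rose in knockout cortex. It had 1.96, 1.24, 1.20, 0.957 and 1.14 CPM in knockout mice 7, 12, 18, 19 and 22, against 0.474, 0.250, 0.413 and 0.422 CPM in heterozygous mice 14, 15, 17 and 21. Every knockout library was above every heterozygous library, and mouse 7 was the highest knockout mouse. The log2 difference was 1.74 ± 0.24 (edgeR, adjusted p = 0.049), and it was close to the threshold: the call was lost with DESeq2 size factors and in 12 of 24 alternatives, in all of which the difference kept its sign. Of 9 fits that left out 1 mouse, it held in 3 and was lost without heterozygous mouse 14, 15, 17 or 21 or knockout mouse 12 or 18 (adjusted p of 0.025 to 0.15 over the 9). In bound RNA the log2 difference was 2.13 ± 0.35 (edgeR, adjusted p = 0.23).

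The third called gene, Gm48733, is annotated as a transcribed processed pseudogene 120 kb from Zfp457. It falls outside the rule for naming genes and is named here after its values were seen. It passed the filter for low counts through the knockout mice alone, so it could only come out higher in them. It had 13 to 31 counts in each knockout mouse, against 0 to 1 in each heterozygous mouse. Over all mice this was 118 counts in knockout and 1 count in heterozygous cortex, a ratio of 86.5 with an exact 95% interval of 15.2 to 3443 that covers counting error only (edgeR, adjusted p = 0.0019).

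Zfp457 and Gm48733 lie in a stretch of chromosome 13 with many zinc finger genes, and other genes around them also had small p-values. KRAB zinc finger proteins are transcriptional repressors that mostly bind transposable elements, and in mice this stretch includes Rsl1, a regulator of sex-limited liver genes. Of 109 other genes tested within 5 Mb of the start of Zfp457, a window chosen after the values were seen, 34 had an unadjusted p under 0.05 (31.2%, 95% Wilson interval 23.3 to 40.4%), 10 higher and 24 lower. The interval takes the genes as independent draws. They are neighbours measured in the same mice, so it gives no error over mice. The share was 47.1% within 2 Mb and 18.6% within 10 Mb. Among 261 segments of 10 Mb that held at least 20 tested genes, the one from 60000001 to 70000000 on chromosome 13 had the highest share, 35 of 117 genes (29.9%). The median segment had 4.08%. The next were 20000001 to 30000000 on chromosome 12, with 15 of 61 genes (24.6%), and 1 to 10000000 on chromosome 3, with 5 of 22 (22.7%). For 6 of the 109 genes all knockout mice were above all heterozygous mice, against 0.582% of all genes, and for 15 all were below, against 0.955%. Together these were 19.3%, against 1.54% of all genes.

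**Figure D1:**
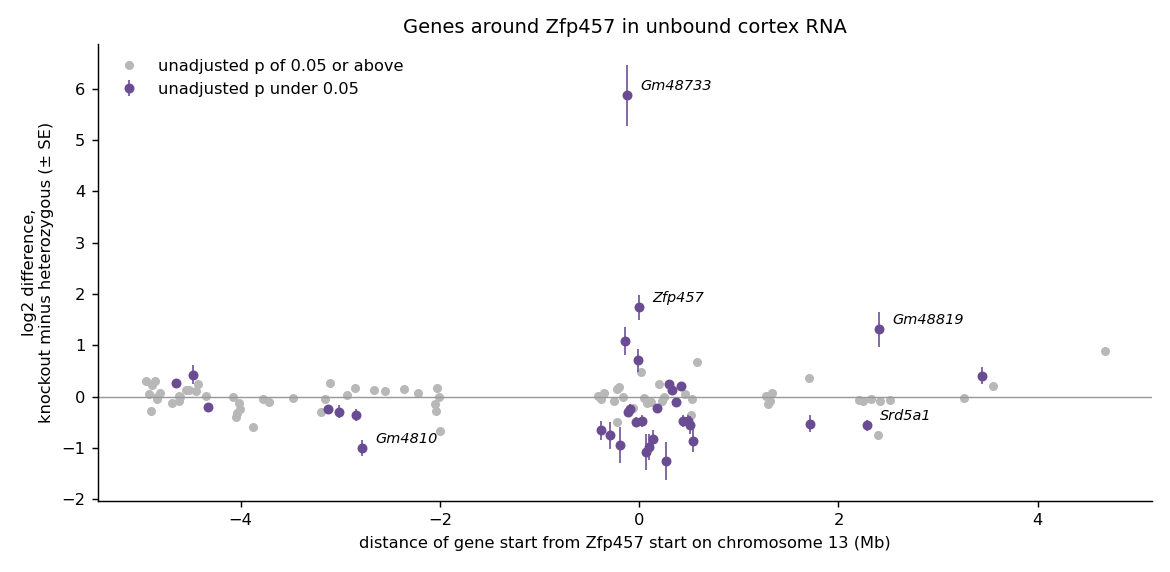
Genes tested within 5 Mb of Zfp457, by the distance of each gene's start from that of Zfp457 (Mb, x axis) and the log2 difference between knockout and heterozygous mice in unbound RNA (y axis, bars are SE). Purple points have an unadjusted p under 0.05. They cluster next to Zfp457, in both directions, and Gm48733 at 5.87 and Zfp457 at 1.74 are the 2 called genes.

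Members of the cluster had values in both directions. Of 25 Zfp genes tested in the window, Zfp457 included, 4 were higher and 8 lower at an unadjusted p under 0.05. Over all genes these shares were 2.14% and 2.48%. The median of the 25 was -0.05. Zfp874a had 5.30, 10.3, 8.84, 9.94 and 10.9 CPM in knockout mice 7, 12, 18, 19 and 22, against 13.02, 15.7, 16.9 and 18.3 CPM in heterozygous mice 14, 15, 17 and 21 (log2 difference -0.82 ± 0.17, edgeR, adjusted p = 0.30). Zfp458 had 16.5, 23.7, 24.9, 25.0 and 24.5 CPM in the same order of knockout mice, against 31.7, 34.1, 31.1 and 31.8 CPM (-0.49 ± 0.10, adjusted p = 0.36). In both genes the genotypes did not overlap and mouse 7 was the lowest.

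Outside the zinc finger family, Srd5a1, which encodes steroid 5-alpha-reductase, averaged 11.9 ± 2.06 CPM in knockout and 17.4 ± 0.187 CPM in heterozygous mice (log2 difference -0.55 ± 0.11, adjusted p = 0.23). Further members named after their values were seen were Zfp429 at 0.888 ± 0.318 and 1.73 ± 0.172 CPM, Zfp595 at 3.32 ± 0.470 and 4.59 ± 0.438 CPM, Zfp493 at 4.67 ± 0.685 and 6.51 ± 0.774 CPM and the processed pseudogene Gm4810 at 0.563 ± 0.0833 and 1.13 ± 0.0631 CPM in knockout and heterozygous mice. Higher values were seen for Zfp65, at 29.9 ± 1.03 CPM in knockout and 25.8 ± 1.68 CPM in heterozygous mice, and for Dapk1, a death-associated kinase gene further along the chromosome, at 78.8 ± 4.62 and 68.4 ± 4.08 CPM. None of these passed the test. The zinc finger genes are near copies of each other, so the counting may have split reads among them, and their single values are uncertain.

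Knockout mouse 7 stood at the extreme of this stretch. Over the 35 genes of the window with an unadjusted p under 0.05, Zfp457 included, mouse 7 was the knockout mouse farthest in the gene's own direction for 23, while each of the other 4 was so for 2 to 4. Over the 934 such genes elsewhere in the genome, mouse 7 was farthest for 154 (16.5%). Without mouse 7, 28.4% of the neighbours still had an unadjusted p under 0.05. In bound RNA, which comes from the same pieces and is no independent check, 31 of the 34 genes that could be tested had the same sign.

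Genes induced by interferon had lower values in knockout cortex, but none passed the test over all genes. Type I interferon acts through transcription factors, among them Stat2 and Irf9, that bind a short element in the promoters of antiviral genes such as the Oas, Ifit and Mx families. Of the 32 interferon response genes listed and tested, 31 had a log2 difference below 0, against 50.6% of all genes, and the median was -0.43. For 21 of the 32 the unadjusted p was under 0.05 with a lower value, against 2.48% of all genes, and for none with a higher one. All knockout mice were below all heterozygous mice for 3 of them, Oasl2 and Irf9 included, against 0.955% of all genes. The list had been seen to be lower in bound RNA of the same mice before it was applied here. The summed level of the list was 268.6 to 403.9 CPM in knockout and 389.0 to 624.7 CPM in heterozygous mice, so the ranges overlapped.

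The element was searched for because nearly all of these genes lay below 0, a choice made after their values were seen. The search had been planned only for the case that listed genes were called, and none was. The list was picked as genes of the interferon response, so its share of promoters with the element describes the list and not the genotype difference. Of 20 list members with a RefSeq promoter window (250 bases before to 50 after the start, GRCm38.p6), 12 held GAAA, any 2 bases and GAAA again on either strand, against 3.99% of 27025 genes with such a window. Overlapping matches were allowed. The windows of the 3 members with the smallest unadjusted p among those 12 are shown 5′ to 3′ on the strand of the gene, with matches in capitals. Ifih1 is on the minus strand at chr2:62646206-62646505, Isg15 on the minus strand at chr4:156200769-156201068 and Ifit1 on the plus strand at chr19:34640639-34640938.
Ifih1: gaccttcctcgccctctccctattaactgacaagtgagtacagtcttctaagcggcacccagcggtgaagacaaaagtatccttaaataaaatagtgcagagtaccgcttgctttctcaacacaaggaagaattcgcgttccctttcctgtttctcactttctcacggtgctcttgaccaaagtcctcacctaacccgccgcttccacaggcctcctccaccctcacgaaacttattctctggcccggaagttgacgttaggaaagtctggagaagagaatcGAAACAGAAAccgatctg
Isg15: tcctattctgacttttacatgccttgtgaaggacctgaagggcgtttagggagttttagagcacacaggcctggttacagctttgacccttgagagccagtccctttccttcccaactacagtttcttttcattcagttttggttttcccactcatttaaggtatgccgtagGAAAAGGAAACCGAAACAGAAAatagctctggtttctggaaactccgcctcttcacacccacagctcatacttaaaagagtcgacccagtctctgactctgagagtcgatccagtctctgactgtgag
Ifit1: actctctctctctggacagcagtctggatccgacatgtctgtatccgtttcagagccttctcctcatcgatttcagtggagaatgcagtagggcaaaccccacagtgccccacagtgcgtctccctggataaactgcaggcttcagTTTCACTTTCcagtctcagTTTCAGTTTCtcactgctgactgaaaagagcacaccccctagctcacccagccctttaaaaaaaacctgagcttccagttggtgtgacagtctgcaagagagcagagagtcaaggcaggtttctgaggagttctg

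Oasl2, an antiviral gene of the oligoadenylate synthetase family, had 107.4, 107.8, 64.7, 87.0 and 74.5 CPM in knockout mice 7, 12, 18, 19 and 22, against 109.3, 137.4, 213.3 and 157.2 CPM in heterozygous mice 14, 15, 17 and 21. The highest knockout mouse was just below the lowest heterozygous mouse, and single libraries overlapped. The log2 difference was -0.80 ± 0.18 (edgeR, adjusted p = 0.54).

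The genes whose promoters are shown had like values. Isg15, a ubiquitin-like protein gene, averaged 5.56 ± 1.10 CPM in knockout and 8.62 ± 2.24 CPM in heterozygous mice. Ifit1, an inhibitor of viral translation, averaged 17.5 ± 4.26 and 27.7 ± 7.41 CPM. Ifih1, a sensor of double-stranded RNA, averaged 19.8 ± 3.54 and 27.5 ± 4.18 CPM. Their mice overlapped between the genotypes, and their adjusted p-values were 0.77 to 0.80.

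Samd9l, an interferon-inducible gene that was not on the list, had the smallest p of all genes not called. It had 19.0, 17.8, 15.1, 19.5 and 16.4 CPM in knockout mice 7, 12, 18, 19 and 22, against 24.3, 23.7, 31.2 and 27.6 CPM in heterozygous mice 14, 15, 17 and 21. No knockout mouse reached a heterozygous one, and the log2 difference was -0.60 ± 0.09 (edgeR, adjusted p = 0.068). Samd9l passed when the 4 knockout control libraries with high Tcf7l2 were left out, an alternative added after seeing the data. The knockout mice then had mostly deprived pieces, and the heterozygous mice as many control as deprived ones. The log2 difference of Samd9l was -0.61 ± 0.11 with deprived and -0.47 ± 0.12 with control libraries alone. In bound RNA of the same pieces, 31 of the 32 listed genes were below 0, against 49.8% of all genes, with a median of -0.56. None passed there. The list was known to be lower in bound RNA before it was applied, so these values are no separate check.

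**Figure D2:**
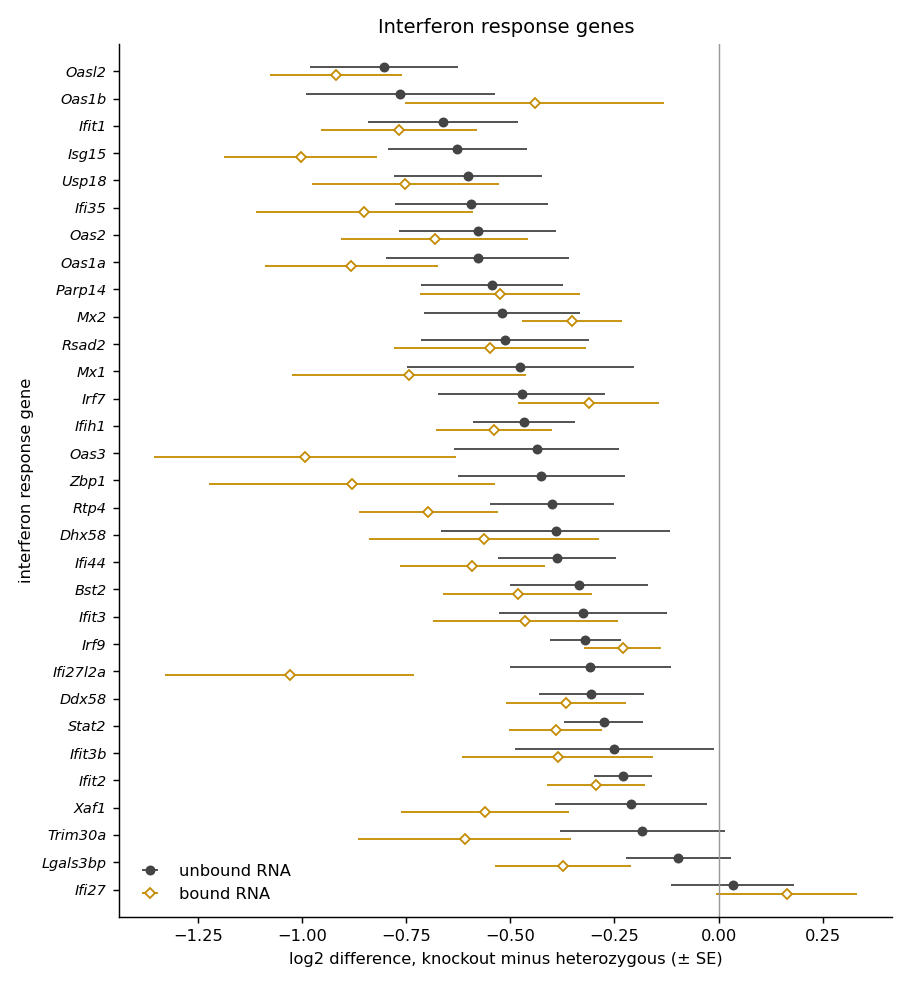
Log2 difference between knockout and heterozygous mice (x axis, bars are SE) for 31 of the 32 interferon response genes (y axis). Filled circles are unbound RNA and open diamonds bound RNA of the same pieces; all but Ifi27 lie below 0 in both.

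Related lists were less one-sided. Of 10 tested members of the p200 interferon-inducible family, 8 were below 0, against 50.6% of all genes. An unadjusted p under 0.05 was given to 2, Ifi206 and Ifi213, both lower, against 2.48% of all genes. Of 14 class I antigen presentation genes, 8 were below 0, beside the same 50.6% of all genes. Only 1 had an unadjusted p under 0.05, H2-T23 at 1.37 CPM in knockout and 1.91 CPM in heterozygous mice. B2m, the shared light chain of class I molecules, averaged 123 CPM in knockout and 120.1 CPM in heterozygous mice. None of these genes passed with both pieces of each mouse summed. The direction of both lists turned with the pieces used. The p200 median was 0.30 with control libraries alone and -0.65 with deprived libraries alone, and the class I median was 0.22 and -0.40. With control libraries alone, 3 of these genes were called, all higher, while 1.35% of all genes were called higher and 0.234% lower in that fit. They were Ifi203 (log2 difference 1.18 ± 0.18, edgeR, adjusted p = 0.0041), Mndal (1.24 ± 0.19, adjusted p = 0.0041) and B2m (0.50 ± 0.10, adjusted p = 0.031). Ifi203 and Mndal overlap each other and belong to a family of near copies, so the counting may have split reads between them.

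The size of the interferon difference varied with the pieces used. The median of the 32 genes was -0.61 with deprived libraries alone and -0.12 with control libraries alone, each with 5 knockout and 3 heterozygous mice. Microglia markers moved in the same direction, with a median of -0.35 with deprived libraries alone and -0.01 with control libraries alone. The difference between the whisker states was not tested for either list, nor was the part of the microglia markers in the interferon values. The interferon median ran from -0.63 to -0.12 over 24 alternatives. Values of heterozygous mouse 17 were the highest of all 9 mice for Oasl2, Isg15, Ifit1 and Ifih1.

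The tissue pieces differed in the levels of genes that mark other brain structures. Which structures each piece held was not tested. Tcf7l2, which in the forebrain is strongest in thalamic neurons and is also an effector of Wnt signalling, had 51.02, 85.3, 53.9, 43.5 and 14.8 CPM in knockout mice 7, 12, 18, 19 and 22, against 14.6, 12.3, 12.8 and 10.9 CPM in heterozygous mice 14, 15, 17 and 21 (log2 difference 1.98 ± 0.34, edgeR, adjusted p = 0.14). The high values came from control pieces. These had 19.1 CPM (mouse 22) to 151.8 CPM (mouse 12) in knockout mice, with a median of 90.8 CPM, against 10.9 to 14.0 CPM in heterozygous control pieces. Deprived pieces had 10.7 to 13.7 CPM in knockout and 11.7 to 15.1 CPM in heterozygous mice, and overlapped.

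Of the other thalamic genes, Shox2 and Ntng1 were also highest in knockout control pieces. Lhx9, on the same list, was high in deprived pieces of both genotypes too, and Prkcd differed little (log2 difference 0.02 ± 0.07). Shox2, a homeobox gene of thalamic neurons, had 281 counts over the knockout mice and 3 counts over the heterozygous mice, a ratio of 68.6 (exact 95% interval 23.2 to 334.8, counting error only; edgeR, adjusted p = 0.10). Shox2 passed the filter for low counts through the knockout mice alone, so it could only come out higher in them. Its knockout control pieces had 0.115 to 2.21 CPM and its knockout deprived pieces 0 to 0.104 CPM. Ntng1, a netrin-related adhesion gene of thalamic axons, averaged 18.0 ± 3.27 CPM in knockout and 11.2 ± 1.12 CPM in heterozygous mice (log2 difference 0.68 ± 0.12, adjusted p = 0.14). All 8 thalamic neuron genes tested were above 0, against 49.4% of all genes, with a median of 0.90. An unadjusted p under 0.05 was given to 5, against 2.14% of all genes. Shox2, whose direction was fixed by the filter, is counted in these values. The direction of the list depended on the pieces: its median was 2.21 over 8 genes with control libraries alone and -0.20 over the 6 genes that could be tested with deprived libraries alone. Their summed level was 84.6 to 203.3 CPM in knockout and 63.1 to 79.2 CPM in heterozygous mice.

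Genes of the hippocampus and choroid plexus varied between pieces of both genotypes. Prox1, a homeobox gene of dentate granule cells, had 94.5 to 133.2 CPM in knockout control pieces, against 33.2 to 43.4 CPM in heterozygous control pieces. In deprived pieces it had 37.0 to 117.2 CPM in knockout and 85.1 to 115.0 CPM in heterozygous mice, with 2 low pieces, those of knockout mice 7 and 18. Ttr, the transthyretin gene of choroid plexus epithelium, had 0.539 to 1046 CPM in knockout deprived pieces and 873.0 to 1254 CPM in knockout control pieces, against 653.4 to 898.5 CPM and 0.368 to 946.1 CPM in heterozygous ones. Lhx9, a homeobox gene on the thalamic list, had 9.63 to 26.7 CPM in knockout control pieces, against 0.376 to 1.51 CPM in heterozygous control pieces. In deprived pieces Lhx9 had 0.329 to 10.2 CPM in knockout and 5.78 to 12.4 CPM in heterozygous mice.

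**Figure D3:**
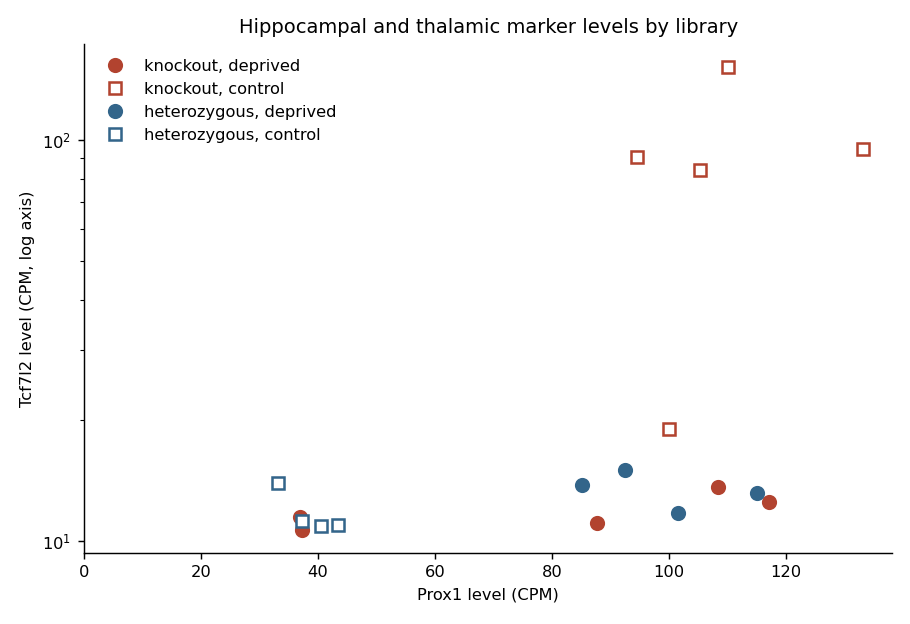
Level of Prox1 (CPM, x axis) and of Tcf7l2 (CPM, log y axis) in each of the 18 unbound libraries. Knockout control pieces of mice 7, 12, 18 and 19 stand above all others in Tcf7l2, and heterozygous control pieces stand with 2 knockout deprived pieces at low Prox1.

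The result with 1 whisker state alone moved with these pieces. With control libraries alone, 299 of 18837 genes were called (1.59%), 255 higher and 44 lower, in 5 knockout and 3 heterozygous mice (edgeR, Benjamini-Hochberg). Prox1 (log2 difference 1.54 ± 0.11), Lhx9 (4.55 ± 0.36), Zic4 (3.75 ± 0.37), Zic1 (2.99 ± 0.32) and the semaphorin receptor gene Nrp2 (2.10 ± 0.20) were among the 12 genes with the smallest p. With deprived libraries alone their log2 differences were -0.37 ± 0.34, -0.70 ± 0.71, -0.77 ± 0.62, -0.70 ± 0.52 and -0.56 ± 0.59, and Cx3cr1 was the 1 gene called of 19258 (0.00519%). Of the lists, 5 of 8 thalamic, 4 of 6 hippocampal, 4 of 18 astrocyte and 1 of 6 choroid plexus genes were called higher with control libraries alone, against 1.35% of all genes. The calls were not limited to these lists. The lists of Wnt ligands, Wnt receptors, Wnt effectors and p200 genes had 2 genes each called higher. Those of neuron markers, class I, complement, inflammatory, immediate early and synaptogenic genes had 1 each. Besides Cx3cr1, 2 listed genes were called lower, against 0.234% of all genes, and both mark cortical layers, Rorb (-0.32 ± 0.07, edgeR, adjusted p = 0.037) among them. Libraries that stood apart in these genes were also left out. Without the 4 knockout control libraries above 50 CPM of Tcf7l2, 4 genes were called, among them Cx3cr1, Gm48733 and Samd9l. This fit kept 5 knockout and 4 heterozygous mice. The knockout mice kept their deprived pieces but only the control piece of mouse 22, while heterozygous mice kept all pieces of both states. Without the 6 libraries below 60 CPM of Prox1, 2 genes were called, Cx3cr1 and Zfp457. This cut removed heterozygous mouse 21 and left 5 knockout and 3 heterozygous mice. It took out every heterozygous control library and the deprived pieces of knockout mice 7 and 18. Heterozygous mice were thus left with deprived libraries only, and knockout mice with both states. Genotype and whisker state are therefore partly mixed in that fit. Both alternatives were added after seeing the data. The part of piece content in the genotype differences was not tested.

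**Figure D4:**
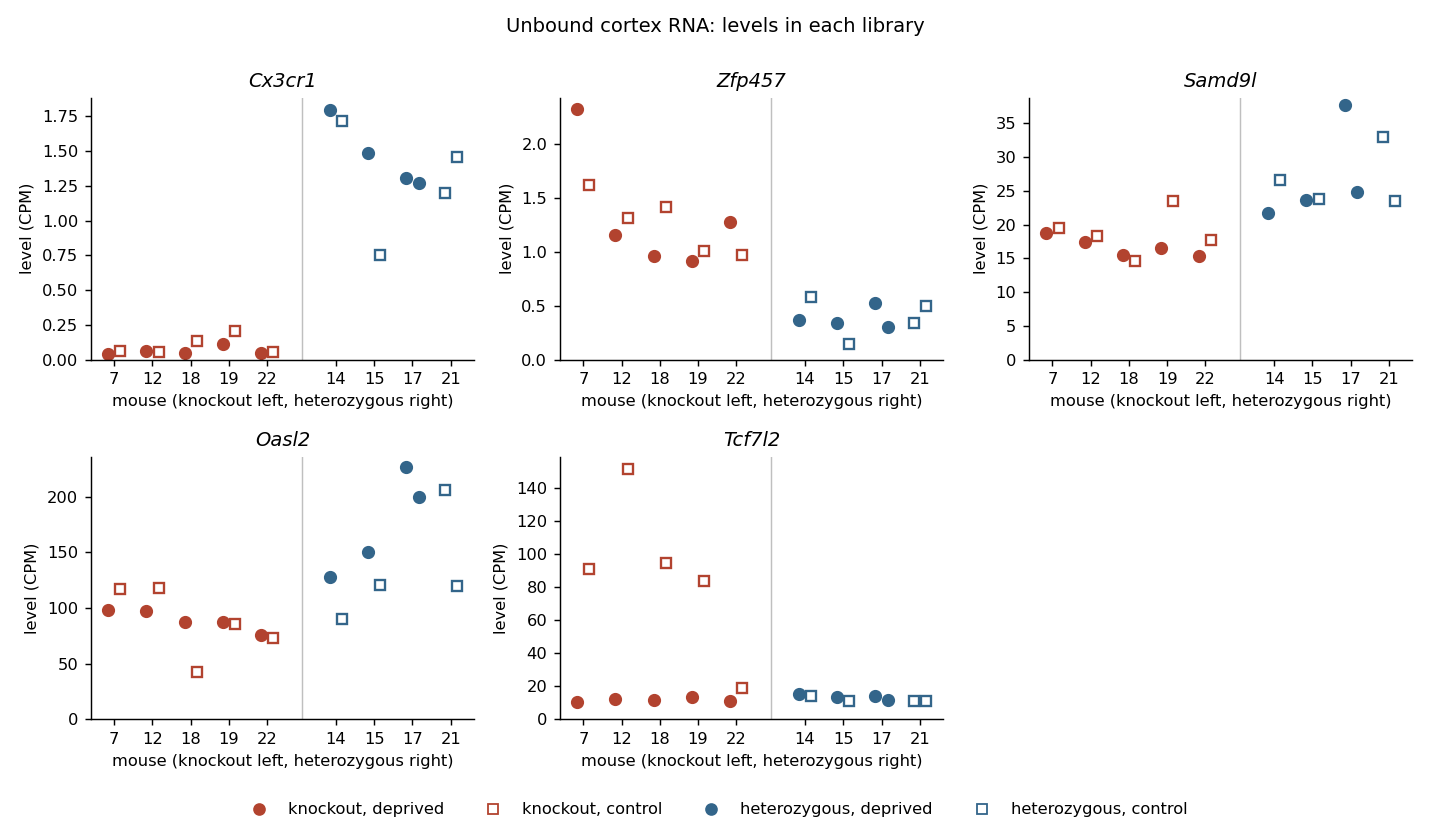
Level (CPM, y axis) of 5 genes in each unbound library, by mouse (x axis), with knockout mice on the left. Circles are deprived and squares control pieces. Cx3cr1 and Zfp457 separate the genotypes in every library, Samd9l and Oasl2 over mice, and Tcf7l2 is high in 4 knockout control pieces alone.

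Markers of microglia other than Cx3cr1 had slightly lower values in knockout cortex, with overlapping mice. None of 22 was called. Of these, 20 were below 0, against 50.6% of all genes, with a median of -0.18. An unadjusted p under 0.05 was given to 4, all lower, against 2.48% of all genes: P2ry13, Aif1, Ly86 and Tmem119. The purinergic receptor gene P2ry13 averaged 1.39 ± 0.226 CPM in knockout and 1.81 ± 0.310 CPM in heterozygous mice. Tmem119 averaged 0.461 ± 0.119 and 0.654 ± 0.125 CPM. In contrast, P2ry12 averaged 2.61 ± 0.452 and 2.64 ± 0.635 CPM. The list summed to 61.5 to 70.6 CPM in knockout and 61.1 to 79.6 CPM in heterozygous mice. With 1 whisker state alone none was called either, and the median of the 22 was -0.35 with deprived and -0.01 with control libraries, alongside the interferon medians of -0.61 and -0.12. In bound RNA, all 22 were below 0, with a median of -0.35 and none called.

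Markers of other cell types differed little. Over all genes, 2.14% were higher at an unadjusted p under 0.05. Astrocyte markers had a median of 0.03, with 1 of 18 at an unadjusted p under 0.05, the lipid carrier gene Apoe at 43.6 ± 3.47 CPM in knockout and 37.9 ± 3.66 CPM in heterozygous mice. Neuron markers had a median of 0.00, with 2 of 14 higher at an unadjusted p under 0.05, among them the neurofilament gene Nefl at 187 ± 17.5 and 159 ± 2.68 CPM. Endothelial markers had a median of 0.11 over 12 genes, mural and meningeal markers 0.07 over 12, oligodendrocyte lineage markers -0.01 over 12 and border macrophage markers -0.07 over 8. All 6 erythroid genes were below 0, against 50.6% of all genes, with a median of -0.16. Their summed levels were 13.8 to 48.8 CPM in knockout and 22.1 to 43.8 CPM in heterozygous mice. Striatal neuron genes had a median of -0.18 over 10 and cortical layer genes -0.04 over 12. No marker in these lists was called with both pieces summed.

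**Figure D5:**
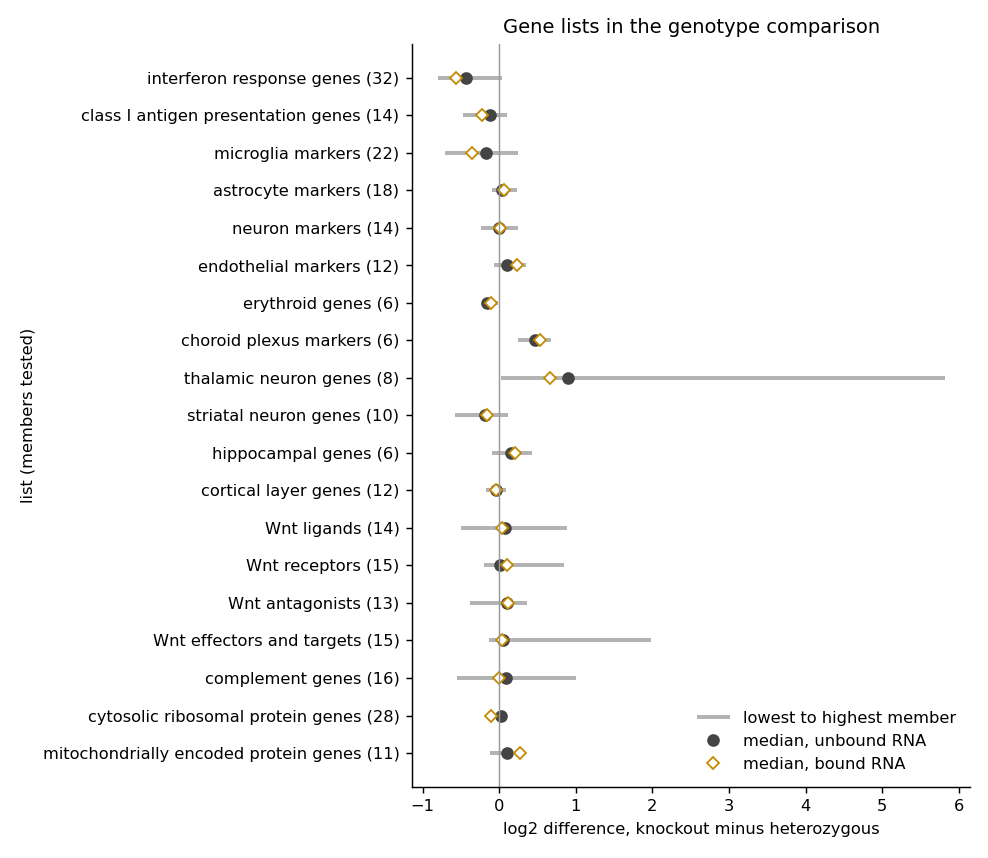
Median log2 difference between knockout and heterozygous mice (x axis) for gene lists (y axis, number of tested members in brackets). Filled circles are medians in unbound and open diamonds medians in bound RNA, and grey bars span the lowest to the highest member in unbound RNA; the interferon list lies lowest, at -0.43, and the thalamic list highest, at 0.90.

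No Wnt gene passed in unbound cortex with both pieces of each mouse summed. Wnt proteins are secreted ligands that act through Frizzled receptors, and in the canonical branch they stabilise beta-catenin, which acts with Tcf and Lef factors on targets such as Axin2. None of 14 ligand and secretion genes had an unadjusted p under 0.05, and their median was 0.08. Wnt5a averaged 9.08 ± 1.46 CPM in knockout and 8.69 ± 1.25 CPM in heterozygous mice. Wnt7a averaged 4.24 ± 0.447 and 4.505 ± 0.190 CPM, and Wnt7b 7.58 ± 0.507 and 7.77 ± 0.7504 CPM. Wls, which carries Wnt proteins to the cell surface, averaged 4.45 ± 0.779 and 4.41 ± 0.436 CPM. Of 15 receptor genes, only Fzd10 had an unadjusted p under 0.05, at 0.246 ± 0.0830 and 0.136 ± 0.0460 CPM, and none of 13 antagonist genes did. With control libraries alone, 1.35% of all genes were called higher. Of 15 ligand and secretion genes, 2 were, Wnt2 (log2 difference 2.37 ± 0.42, edgeR, adjusted p = 0.011) and Wnt9b (6.53 ± 1.20, adjusted p = 0.021). Wnt9b had too few counts to be tested with both pieces summed or with deprived libraries alone. Of 15 receptor genes, 2 were called higher, Fzd1 (1.08 ± 0.15, adjusted p = 0.0028) and Fzd7 (1.26 ± 0.21, adjusted p = 0.0067). With deprived libraries alone Wnt2, Fzd1 and Fzd7 had values of -0.30, -0.30 and -0.59, and none was called.

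Among 15 Wnt effectors and targets, 3 were higher at an unadjusted p under 0.05, against 2.14% of all genes. They were Tcf7l2, Lef1 and Znrf3, a ubiquitin ligase gene of the pathway. Lef1, which like Tcf7l2 is a gene of thalamic neurons, averaged 4.02 ± 0.7102 CPM in knockout and 3.01 ± 0.698 CPM in heterozygous mice (log2 difference 0.42 ± 0.16). With control libraries alone both Tcf7l2 (2.88 ± 0.46, edgeR, adjusted p = 0.0054) and Lef1 (1.31 ± 0.25, adjusted p = 0.018) were called higher, as were 1.35% of all genes. With deprived libraries alone their differences were -0.20 and -0.35. Axin2 averaged 11.9 ± 0.737 and 12.6 ± 0.586 CPM (-0.08 ± 0.06).

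Of the remaining genes with the smallest p-values, none passed and most differed by under 0.5 on the log2 scale. Lower values were seen for Cxcl14, a chemokine gene, at 8.64 ± 0.502 CPM in knockout and 11.6 ± 0.791 CPM in heterozygous mice (log2 difference -0.42 ± 0.07, edgeR, adjusted p = 0.092). Ivns1abp averaged 262 ± 7.50 and 326 ± 35.03 CPM, Plcl1 22.0 ± 0.963 and 27.8 ± 2.63 CPM, and Hey1, an effector of Notch signalling, 42.2 ± 2.42 and 49.6 ± 0.480 CPM. Higher values were seen for Prkch, a protein kinase C gene, at 9.14 ± 0.450 CPM in knockout and 7.33 ± 0.187 CPM in heterozygous mice. Without the knockout control libraries high in Tcf7l2, the log2 difference of Prkch was -0.03, against 0.32 with all libraries. Chst2, a sulfotransferase gene, averaged 196 CPM and 166 CPM (log2 difference 0.24 ± 0.06). The calcium channel subunit gene Cacna2d2 averaged 18.6 ± 0.287 and 14.8 ± 2.22 CPM, Car10 28.6 ± 4.23 and 21.0 ± 3.31 CPM, and the cell cycle inhibitor gene Cdkn1a 39.0 ± 2.48 and 32.3 ± 3.49 CPM. Cxcl14, Ivns1abp, Plcl1, Hey1, Prkch, Chst2 and Cacna2d2 did not overlap between mice of the 2 genotypes, whereas Car10 and Cdkn1a did. Over all genes 1.54% did not overlap. These genes were picked by small p in the same comparison, so their separation goes with that choice and is no further support.

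The genotype difference in unbound RNA was also set against that in bound RNA, with the mouse as a block. No gene of 22293 tested passed for the difference between fractions (edgeR), and 1414 (6.34%) had an unadjusted p under 0.05. For Cx3cr1 the unbound minus bound value was -0.46 ± 0.26 (adjusted p = 0.83). For Zfp457 it was -0.47 ± 0.32, for Oasl2 0.10 ± 0.07 and for Tcf7l2 0.12 ± 0.10, with adjusted p-values of 0.85 to 0.90.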

How the data were processed

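Gene counts came from barrel cortex of 5 knockout and 4 heterozygous mice. The values the authors deposited are whole-number counts of reads for Ensembl genes. Per the submitters' processing notes, the builds were GRCm38 and mm10 and the tools featureCounts 2.0.0, HISAT2 2.2.0, Trim Galore 0.6.4, cutadapt 2.9 and FastQC 0.11.9; settings and strand are not given in the sources used here. The NuGEN Ovation V2 kit served for cDNA, per the labels. Tables were joined by gene ID over 45681 shared genes; 45520 of these matched GENCODE vM21, which gave positions. All 9704 genes listed for the knockout line alone had 0 counts.

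The unbound libraries of each mouse were summed and tested with edgeR 4.0.16 in R 4.3.3 (TMM, filterByExpr on genotype, quasi-likelihood F test, Benjamini-Hochberg over all genes tested, two-sided, threshold 0.05). Levels are CPM on TMM library sizes. Standard errors are the log2 difference divided by the root of F. Bound RNA was tested likewise, and the difference between fractions with mouse as a fixed block. Shares of counts were compared by exact permutation over mice (126 assignments, scipy 1.17.1). Alternatives used DESeq2 1.42.0 and limma 3.58.1. The fit was tested on simulated data: of 100 genes changed by 1 on the log2 scale 72 were recovered, of 100 changed by 0.5 48 were, with 8 false calls. The comparison, the lists and the alternatives were chosen with earlier results of these data known.

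Genes named were those that passed, the 10 next by p in each direction at a mean log2 CPM of 3 or more (predicted genes and pseudogenes left out), up to 3 from any list holding a called gene, and set fractalkine and Wnt genes. Others were named after their values were seen. Some genes are not reported here. Parts of the lists could not be tested for low counts (6 Wnt ligands, 3 p200 genes). Among the genes named, Cx3cr1, Shox2, Tcf7l2, Ntng1, Srd5a1, Plcl1, Ivns1abp, Cacna2d2, Nefl, Car10, Zfp65, Zfp429, Zfp595, Dapk1, Cdkn1a, Lef1, Axin2, Adam17, Wnt5a, Wnt7b, Wls, Prox1, P2ry12, P2ry13, Ifi203, Mndal, B2m, Bdnf, Hapln1, Malat1 and Neat1 overlap another annotated gene, and their counts are uncertain to that extent.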

Additional observations from a re-analysis of the deposited data

Results flagged for a closer look

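Per-mouse levels of the genes named by rule were checked for a mouse far from the others of its genotype, in 62 groups; chance flags about 1 group in 20, and 3 were flagged, all for knockout mouse 7 and all on chromosome 13. Zfp457 was highest there, at 1.961 CPM, Zfp458 lowest, at 16.49 CPM, and Dapk1 highest, at 86.97 CPM. The EGFP tag transgene, which entered no comparison, had 15 to 43 counts (0.377 to 0.854 CPM) in each of the 8 heterozygous unbound libraries, above the 3 counts that a count of 0 allows; it was not analysed here in the knockout line.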

How the results depend on the processing

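The count of 3 called genes was 2 with DESeq2 size factors, 3 without mitochondrial genes in the normalization, 3 with sex as a term and 4 under sample weights in limma-voom. It was 31 when genes with low counts were kept, 20 by the Wald test of DESeq2 and 13 with single libraries as replicates. With limma-voom and the mouse as a random replicate block it was 8 (correlation 0.135); mice are nested in genotype, so no pairing across genotypes was possible, and Cx3cr1, Gm48733 and Zfp457 were called in that fit too. It was 299 with control libraries alone and 1 each with deprived libraries, left pieces, or heterozygous mice 14 and 15 alone. Leaving out 1 mouse at a time gave 2 to 7 calls: 6 without heterozygous mouse 14, and 7 without knockout mouse 22, the 1 knockout mouse whose control piece had low Tcf7l2. Cx3cr1 was called in all 24 alternatives, Gm48733 in 18 of the 22 that tested it and Zfp457 in 12 of 24. Samd9l was called in 5 and Tcf7l2 in 6 of 24. The cause was not tested, apart from fewer genes or samples in those fits.

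Signs of several uncalled genes turned. With deprived libraries alone log2 differences were -0.196 for Tcf7l2, -0.195 for Ntng1, -0.0104 for Prkch, -0.0252 for Chst2, -0.0186 for Car10, -0.354 for Lef1, -0.0694 for Adam17, 0.0105 for Adam10, -0.331 for Wnt5a and -0.226 for Wls. With left pieces alone they were -0.155 for Tcf7l2, -0.0288 for Ntng1, -0.013 for Cdkn1a, -0.172 for Lef1, -0.195 for Wnt5a and -0.123 for Wls. With control libraries alone they were 0.0755 for Axin2, 0.044 for Wnt7a and 0.0629 for Wnt7b, and with right pieces alone 0.0155 for Wnt7b. Without the libraries high in Tcf7l2 they were -0.0322 for Prkch, -0.0205 for Wnt5a and -0.0882 for Wls, and without those low in Prox1 -0.0208 for Adam17, -0.166 for Wnt5a and -0.0791 for Wls. Sample weights gave 0.0002 for Adam10 and -0.0017 for Wls, sex as a term -0.0298 for Wls, and mice 14 and 15 alone -0.0285 for Wls. Over fits without 1 mouse, Adam10 ran from -0.0721 to 0.006, Wnt5a from -0.0236 to 0.158, Wnt7b from -0.0872 to 0.0157 and Wls from -0.0916 to 0.0829.

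The difference between fractions called 0 genes with edgeR and 0 with limma-voom and the mouse as a fixed replicate block, where 1448 had an unadjusted p under 0.05. The share of chromosome 13 neighbours of Zfp457 ran from 18.6% to 47.1% over 26 alternatives, and that of chromosome 9 neighbours of Cx3cr1 from 1.65% to 13.3%. The simulated recovery was 48 of 100 genes at a log2 change of 0.5, with 100 genes changed at each size tried. The real data gave 3 calls, so the adjustment was stricter there, and recovery with 5 against 4 mice may be lower than simulated.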

Other observations

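Lists of general cell states showed medians near 0 in unbound RNA. Immediate early genes, which mark recent neuronal activity, had a median of -0.05 over 19 genes, heat shock and stress genes 0.02 over 18, synaptogenic and matrix factors 0.08 over 14, sterol synthesis genes -0.04 over 18, cell cycle genes -0.01 over 20, cytosolic ribosomal protein genes 0.03 over 28 and nuclear respiratory chain genes -0.01 over 27. No member of these lists was called with both pieces of each mouse summed. With control libraries alone Bdnf and Hapln1 were called higher, as were 1.35% of all genes. Of 16 complement genes, 3 were higher and 1 lower at an unadjusted p under 0.05, against 2.14% and 2.48% of all genes. Cd59a, an inhibitor of the membrane attack complex, averaged 2.66 ± 0.687 CPM in knockout and 1.33 ± 0.461 CPM in heterozygous mice (log2 difference 1.00 ± 0.24, edgeR, adjusted p = 0.65, and 0.012 with control libraries alone). Of 13 inflammatory genes, 1 was higher at an unadjusted p under 0.05.

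Some RNAs that are nuclear or carry no usual polyA tail bear on the labelled RNA types. Malat1, a nuclear long noncoding RNA, averaged 609 ± 180.5 CPM in knockout and 1005 ± 629.0 CPM in heterozygous mice, Neat1 5.24 ± 0.456 and 5.22 ± 0.878 CPM, and Rn7sk, a transcript of RNA polymerase III, 10.8 ± 2.18 and 9.13 ± 1.70 CPM; the mice overlapped in all 3. Replication-dependent histone genes had a median log2 difference of 0.10 over 34 tested.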
